A study of Mus musculus with 52 samples.

Results

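The nuclear genes of oxidative phosphorylation were followed through 52 messenger RNA libraries of mouse stem cells and of the embryo-like aggregates grown from them. Members were chosen by symbol: genes whose name begins with Ndufa, Ndufb, Ndufc, Ndufs or Ndufv, with Cox4 to Cox8, with Uqcr or with Atp5, together with Sdha, Sdhb, Sdhc and Sdhd. A gene also needed a mean of at least 1 CPM (1 count in 1000000 counts of a library) over the 52 libraries. Of 55291 genes in the counts, 111 matched by symbol, 14 of them ended in -ps and were left out, and 8 lay below the mean, which left 89 members. They comprised 36 genes for subunits of complex I, 8 assembly genes of complex I (the Ndufaf genes, which the symbol rule takes in), 4 genes of complex II, 8 of complex III, 16 of complex IV and 17 of complex V. Ndufa4 and Ndufa4l2 were placed with complex IV. The choice used no comparison between groups, and all 89 members passed the filter on low counts and were tested among 25056 genes.

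Oxidative phosphorylation makes ATP in the inner mitochondrial membrane. Complexes I and II take electrons from NADH and succinate, complex III passes them to cytochrome c, complex IV (cytochrome c oxidase) hands them to oxygen, and complex V (ATP synthase) uses the proton gradient built on the way. A few subunits come from the mitochondrial genome and all others from the nucleus. Several complex IV genes exist as a common form and a form restricted to a tissue or a condition: Cox6b2 is the testis form of Cox6b1, Cox7a1 the heart and muscle form of Cox7a2, Cox4i2 the lung form of Cox4i1, which responds to oxygen, and Ndufa4l2 a hypoxia-induced relative of Ndufa4. Early embryos and naive stem cells are known to respire, and cells after implantation rely more on glycolysis.

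All libraries came from wild-type mouse cell lines. Extended pluripotent stem cells (EPSCs) of the line mc6-1/Mu-mClover3-10# were kept in LCDM medium and gave 4 libraries, embryonic stem cells (mESCs) of the line 2i-0606-td-ES were kept in 2i/L medium, and every group but the EPSCs had n = 2 libraries. EPSCs received a totipotency medium with CHIR-99021 (a GSK3 inhibitor), Elvitegravir (an HIV integrase inhibitor), PD0325901 (a MEK inhibitor) and CD1530 (a retinoic acid receptor agonist) for 2 days (S1) or for 25 or 38 passages (P25, P38), and mESCs received it for 2 days. Other EPSCs were given for 2 days CHIR-99021 alone (CHIR), or CHIR-99021 with Elvitegravir, PD0325901 or CD1530. The medium in which these compounds were given is not stated in the labels. Aggregates of S1 cells were kept for 1 day in a medium called 4C-64C (S2), and aggregates of S2 cells for 1 more day in the same medium (S3). At both stages 4 groups lacked 8Br-cAMP (a cyclic AMP analog), Birabresib (a BET bromodomain inhibitor), CHIR-99021 or CD1530. S5 aggregates came from day 1 of S4 and spent 3 days in a peri-implantation medium on Aggrewell plates, complete or without Activin A, BMP4, FGF4 or XAV939 (a tankyrase inhibitor). S4 was not analysed here. Each cell type came from 1 labelled line, and no label says that the libraries of a group are separate cultures, so p-values measure the spread between libraries, which may be technical. Agents are written with a minus sign where they were left out (S3 -CHIR).

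Calls required an adjusted p under 0.05 in the quasi-likelihood F test of edgeR and a difference of at least 1.5-fold, and "rose" and "fell" are used only for such genes. Beside each first count of called members stands the share of all 25056 tested genes that was called in the same direction. Levels are CPM on library sizes scaled by TMM. In such bulk libraries fewer cells of a type and less RNA per cell cannot be told apart.

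The values next to the limit of 1 CPM were 1.37 CPM for Cox4i2, the lowest member, and 0.607 CPM for Cox6c2 and 0.436 CPM for Cox7b2, the highest genes left out. Cox6a2, Cox8b, Cox8c, Ndufa11b, Ndufb4c and Ndufs6b were lower still. Per kilobase of exon the most abundant members over all libraries were Atp5b and Atp5a1, the beta and alpha subunits of the ATP synthase head, at 392 and 326 CPM per kilobase. Cox6a1 and Cox8a of complex IV followed at 309.9 and 227 CPM per kilobase, and Ndufb2 and Cox4i2 were lowest at 0.967 and 1.74 CPM per kilobase. Exon lengths join all annotated exons of a gene, 5628 bases for Ndufb2, so this order depends on the annotation.

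Promoters are shown for 4 genes that carry the results below: Cox6b2 and Cox7a1, which moved in opposite directions in totipotency medium, and Uqcr11 and Ndufaf4, which fell in S1 and hold a motif of a known regulator of respiratory genes. Each stretch is the 120 bases before the start of the gene in RefSeq (GRCm38.p6), on the strand of the gene and written from 5′ to 3′. Positions are chr7:4753095-4753214 (minus strand), chr7:30184051-30184170 (plus strand), chr10:80406822-80406941 (minus strand) and chr4:24897963-24898082 (plus strand). Capitals mark a match to the ETS motif CCGGAAG, bound by GABP, or to the NRF1 motif GCGCATGCG on either strand, where forward and reverse matches may overlap, and the stretches without capitals hold neither, nor the YY1 motif AAGATGGCG or the ERR motif AAGGTCA.
Cox6b2: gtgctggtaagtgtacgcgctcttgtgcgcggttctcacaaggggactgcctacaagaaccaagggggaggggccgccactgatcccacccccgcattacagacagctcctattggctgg
Cox7a1: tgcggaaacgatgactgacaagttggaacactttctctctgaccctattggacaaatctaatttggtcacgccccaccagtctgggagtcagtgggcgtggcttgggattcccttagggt
Uqcr11: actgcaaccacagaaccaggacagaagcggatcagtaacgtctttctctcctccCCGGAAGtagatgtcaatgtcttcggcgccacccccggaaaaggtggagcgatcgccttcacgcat
Ndufaf4: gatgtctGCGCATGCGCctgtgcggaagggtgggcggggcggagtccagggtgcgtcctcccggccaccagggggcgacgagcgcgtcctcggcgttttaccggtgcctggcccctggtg

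RefSeq promoters of 250 bases before and 50 after the start were found for 74 of the 89 members. The NRF1 motif stood in 10 of them (13.5%) and in 1.95% of all 27025 promoters of that length. The ETS motif was present in 19 members (25.7%, against 9.93% of all), the YY1 motif in 8 members (10.8%, against 1.64%) and the ERR motif in 8 members (10.8%, against 5.38%). Both strands were searched, a promoter can hold several motifs, and a match says only that the letters are there. In S1 against EPSCs, where 15.8% of all tested genes fell, 5 of the 10 members with the NRF1 motif and 38 of the 64 without it fell. The counts were 14 of 19 with and 29 of 55 without the ETS motif, 7 of 8 and 36 of 66 for the YY1 motif, and 3 of 8 and 40 of 66 for the ERR motif. The median log2 fold changes with and without a motif were -0.72 and -0.65 for NRF1, -0.73 and -0.64 for ETS, -0.77 and -0.65 for YY1, and -0.60 and -0.66 for ERR. These differences were not tested.

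Some libraries and genes stood apart and touch the results. The libraries fall into a first set of 12 (S1, the 4 groups given CHIR-99021 with or without 1 further compound, and EPSC libraries 1 and 2) and a second set of 40, which carry later accession numbers. In the first set 12283 genes had no count that did have counts in the second, among them Cox4i1 and Ndufa13. Of their exonic bases 9.9% and 30% lie in another gene, mainly Emc8 and Tssk6. In Ndufaf2 and Ndufb6, which did have counts in the first set, 65.6% and 39% lie in another gene. The part of such overlap was not tested. Atp5o was at 5.06 and 4.71 CPM in EPSCs of the first set and at 114 and 106 CPM in those of the second. Each comparison of 2 groups therefore stays within its own set. References pooled from all 4 EPSC libraries, differences between responses and patterns over all groups do cross the sets, and are named as such. Cox4i1 and Ndufa13 are left out of the first set, where 87 members remain. Only 21300 of the 25056 tested genes had a count there. For comparisons within the first set the shares of all tested genes still include the others, which could not be called. Those shares are thus lower than they would be among counted genes. Library totals ran from 16643188 to 108304781 counts. Among small counts the even numbers made up 66.8% to 80.5% in 46 libraries and 40.7% to 42.0% in the other 6 (EPSC libraries 3 and 4, P25 and P38). The way the counts were made may thus differ between them, which was not tested. Markers differed between the groups. The summed level of 4 markers of the 2-cell stage was 957 to 1035 CPM in S1. It was at most 0.517 CPM in EPSCs and untreated mESCs, with all 4 at 0 in EPSCs of the first set. In treated mESCs it was 119 to 126 CPM, in P25 173 to 185 CPM and in P38 131 to 168 CPM. S5 -XAV939 had 166 to 167 CPM. These sums cross the sets. Pou5f1 was present in every group, and Sox2 had no count in the first set. Extraembryonic endoderm markers summed to 1025 to 1394 CPM in S5 and to 112 to 115 CPM in S3. The 8 feeder fibroblast markers summed to 2153 to 2263 CPM in mESCs, 1025 to 1029 CPM in treated mESCs, 699 to 714 CPM in EPSCs of the second set and 1278 to 1288 CPM in P25. In the first set they summed to 262 to 287 CPM in EPSCs and 275 to 293 CPM in S1. Their part in the results was not tested.

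Within the first set, the second CHIR library and the second CHIR+PD0325901 library differed from the other 10. Both lay below all 10 in 36 of 87 members (41.4%, against 15.1% of 14177 genes above 1 CPM) and above all 10 in 9 members (10.3%, against 12.9%). Atp5k, the e subunit of ATP synthase, was at 1.05 and 2.21 CPM in these libraries and between 24.8 and 42.1 CPM in the other 10. Uqcrq, a small subunit of complex III, was at 18.4 and 27.3 CPM against 38.4 to 102.5 CPM. Ndufaf4, an assembly factor of complex I, was at 72.2 and 70.7 CPM and thus above the 17.2 to 44.1 CPM of the others. Exon lengths of the members below had a median of 1092 bases, against 1822 bases for those on neither side and 2239 bases for those above. Of 70 genes for cytosolic ribosomal proteins, 22 lay below and 11 above. Results of the CHIR group are given with and without its second library.

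**Figure D1:**
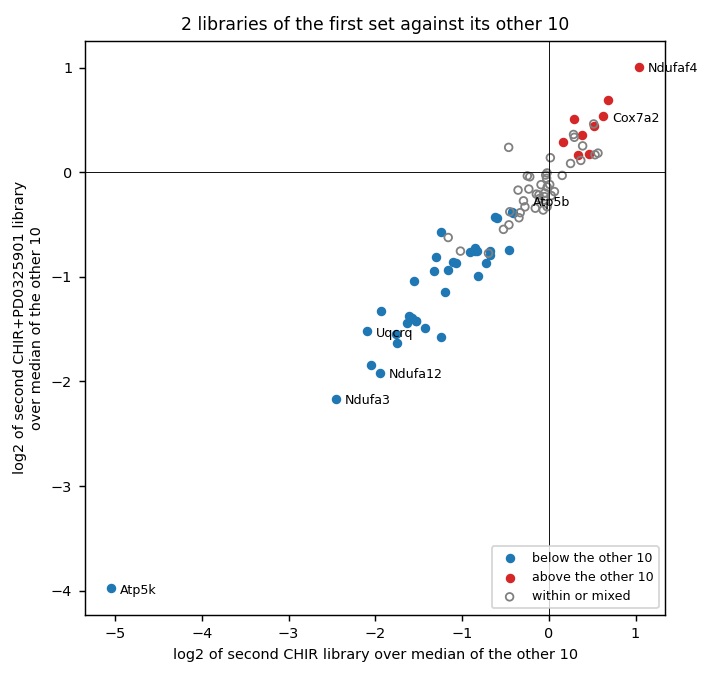
Each point is 1 of 87 members, and the axes give the log2 ratio of its CPM in the second CHIR library (x) and the second CHIR+PD0325901 library (y) to the median of the other 10 libraries of the first set. The 36 filled blue points lie below all 10 libraries in both, with Atp5k farthest down, and the 9 red points lie above them.

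The summed level of 86 members (without Cox4i1, Ndufa13 and Atp5o) was higher in untreated stem cells than in the same cells given totipotency medium. It was 12471 ± 141 CPM (mean ± SD, n = 2) in EPSCs of the first set, 11187 ± 325 CPM in those of the second and 11147 ± 45.1 CPM in mESCs. In totipotency medium it was 7723 ± 509 CPM in S1, 8792 ± 39.1 CPM in treated mESCs, 8490 ± 192 CPM in P25 and 9210 ± 110.1 CPM in P38, and no treated library reached a starting one. With 2 libraries against 2 an exact permutation test cannot give a p below 0.333, so sums are described without a test. Complex V made up the largest part in every group, with 5751 ± 12.7 CPM in EPSCs and 3429 ± 189 CPM in S1. S2, S3 and S5 were at 9512 ± 324, 9788 ± 421 and 9157 ± 887 CPM, values that overlap between neighbours.

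**Figure D2:**
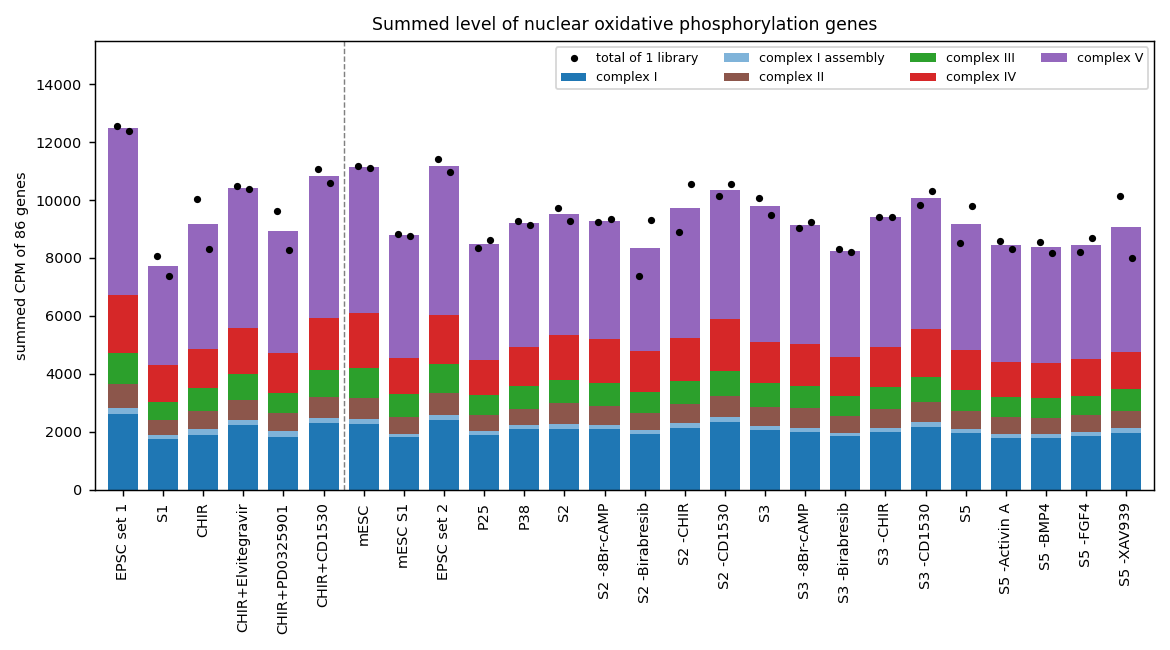
Bars give the mean summed CPM of 86 members in each of 26 group means, stacked by complex, and black points give the total of each library. The dashed line parts the first set from the second, and EPSC and mESC bars stand above those of the cells given totipotency medium.

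Most members kept a narrow range. The SD of the log2 group means over the 26 groups was under 0.5 in 79 of 87 members, with a median of 0.31. Uqcr10, Atp5g1 and Ndufa6 followed the median of all members most closely, with correlations over the 26 group means of 0.85, 0.83 and 0.78. Cox4i2, Ndufa4l2, Atp5o and Cox7a1 followed it least, with -0.29, -0.18, -0.17 and -0.16. These correlations and SDs cross the sets and are descriptions only, and the value of Atp5o includes its difference between the sets.

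Most members fell in EPSCs given totipotency medium for 2 days. In S1 against EPSCs of the same set 49 of 87 members fell (56.3%, against 15.8% of all tested genes) and 2 rose (2.30%, against 23%). A further 36 did not pass, and 81 of the 87 had a value below 0. The median log2 fold change of the members was -0.64, a median level of 0.64 times that of EPSCs, against 0 over all tested genes. All tested genes include those without a count in the first set. The fall reached every complex: 16 of 35 subunit genes of complex I, 5 of 8 of its assembly genes, 2 of 4 in complex II, 6 of 8 in complex III, 9 of 15 in complex IV and 11 of 17 in complex V. Complex III had the lowest median log2 fold change, -1.04, and complex I one of -0.53.

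Cox6b2, the testis form of a complex IV subunit (chr7:4751792-4753094, minus strand), had the strongest fall of these 49. It measured 77 and 71.9 CPM in EPSCs and 14.5 and 13.4 CPM in S1. The S1 libraries were far below, with a log2 fold change of -2.42 (SE 0.22, adjusted p = 4.69e-12) by edgeR. Ndufs7, an iron-sulfur subunit of complex I (chr10:80249121-80256794), went from 87.9 and 87.2 CPM to 29.8 and 23.4 CPM, with a log2 fold change of -1.72 (SE 0.14, adjusted p = 4.03e-13) by edgeR. Atp5g1 (chr11:96068852-96075670), from which part of the c ring of ATP synthase is made, was at 213 and 218 CPM in EPSCs and 80.2 and 67.6 CPM in S1. Its edgeR test gave a log2 fold change of -1.54 (SE 0.12, adjusted p = 8.11e-14). Uqcr11, the smallest subunit of complex III, measured 92.1 and 85.3 CPM and then 40.7 and 32.1 CPM, with a log2 fold change of -1.28 (SE 0.30, adjusted p = 4.64e-04) by edgeR. None of these 4 genes had overlapping groups.

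Other core or catalytic subunits were mixed: some fell and others did not pass. Of complex I, Ndufv1 and Ndufs1 fell (log2 fold changes -1.02 and -0.62). In complex II, Sdhd and Sdhb fell (log2 fold changes -1.15 and -0.67), and Sdha and Sdhc were at -0.57 (SE 0.08) and -0.32 (SE 0.10). Uqcrc1, Uqcrc2 and Uqcrfs1, the core and Rieske proteins of complex III, all fell, at -1.12, -0.62 and -0.96. Atp5a1 went from 1399 and 1379 CPM to 635 and 648 CPM, and Atp5b from 2048 and 2092 CPM to 1319 and 1163 CPM. Both fell, with log2 fold changes of -1.11 (SE 0.07) and -0.74 (SE 0.08). Cox5a fell (-0.66), and Cox5b, at -0.45 (SE 0.28), and Atp5c1, at -0.50 (SE 0.10), did not pass. Ndufv2, an iron-sulfur subunit of complex I named after its value was seen, was at -0.16 (SE 0.12) and did not pass either.

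The 2 members that rose in S1 were restricted isoforms of complex IV. Cox7a1, the heart and muscle form (chr7:30184144-30186078, plus strand), was at 2.04 and 2.02 CPM in EPSCs and 7.23 and 5.76 CPM in S1, with a log2 fold change of 1.68 (SE 0.30, adjusted p = 9.84e-06) by edgeR. Its common partner Cox7a2 fell from 132 and 124 CPM to 76.7 and 73.4 CPM. Cox4i2 was at 0.932 and 1.01 CPM and then 2.47 and 2.80 CPM, with a log2 fold change of 1.44 (SE 0.43, adjusted p = 0.00493) by edgeR. Ndufa4l2 was at 1.40 and 2.09 CPM in EPSCs and 1.44 and 3.62 CPM in S1, which overlap.

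Lists of other genes of the pathway and its surroundings were mixed in S1, some with mostly falls and others with more rises. Of 77 genes for mitochondrial ribosomal proteins 43 fell and 1 rose, with a median log2 fold change of -0.66, and of 76 genes for cytosolic ribosomal proteins 33 fell and none rose, with a median of -0.58. Of 32 assembly factors outside the rule 8 fell and 2 rose, of 18 genes of the citric acid cycle and pyruvate dehydrogenase 8 fell and 2 rose, and of 14 regulators 6 fell and 2 rose. Of 7 electron carriers and transporters 4 rose and 2 fell. The 13 transcripts of the mitochondrial genome had 2 that rose and none that fell, with a median of 0.41.

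The single compounds were set beside CHIR-99021 to show what each adds. In CHIR against EPSCs 30 of 87 members fell (34.5%, against 12.4% of all genes) and 1 rose (1.15%, against 15.9%), with a median log2 fold change of -0.42. Without the second CHIR library 13 fell and 1 rose, with a median of -0.24, and without the first 42 fell and 1 rose, so the count rests on the second library. Fitted on the compared groups alone, 9 fell.

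Cox6b2 again had the strongest fall of these, at 19 and 8.30 CPM in CHIR against 77 and 71.9 CPM in EPSCs, with a log2 fold change of -2.42 (SE 0.22, adjusted p = 1.96e-11) by edgeR. Without the second CHIR library its log2 fold change was -1.95 and the call held. Cox8a, a small subunit of complex IV, was at 125 and 52 CPM against 245 and 266 CPM, with a log2 fold change of -1.52 (SE 0.26) and -1.01 without that library. For Uqcr11 the values were -1.43 (SE 0.31) and -0.82, and for Ndufb6, an accessory subunit of complex I, -1.43 (SE 0.21) and -0.99. Both passed either way, although Uqcr11 did not pass in a fit of the compared groups alone (adjusted p = 0.0976, edgeR).

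Ndufa4l2 (chr10:127514967-127517154) was the member that rose with CHIR-99021, from 1.40 and 2.09 CPM to 10.7 and 3.23 CPM, with a log2 fold change of 2.04 (SE 0.42, adjusted p = 1.43e-04) by edgeR. The call was lost without the first CHIR library (log2 fold change 0.91, adjusted p = 0.141), in a fit of the compared groups alone (2.01, adjusted p = 0.0606) and against all 4 EPSC libraries pooled over both sets (0.42, adjusted p = 0.508). The EPSC libraries of the second set held 9.22 and 9.08 CPM of it.

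With Elvitegravir or PD0325901 added to CHIR-99021 edgeR called no member. With Elvitegravir 0.012% of all genes were called, 34 of the 87 members had an unadjusted p under 0.05, and DESeq2 called 12. Without the first CHIR library edgeR called 36 members, and without the low-count filter 17. With PD0325901 7.34% of all genes were called, 7 members had an unadjusted p under 0.05, and DESeq2 called none. Leaving out 1 library in turn gave 6 to 20 called members there, with 20 when the first CHIR library was absent. Uqcr11 shows how far the CHIR libraries were apart, at 49.7 and 15.4 CPM beside 62.1 and 65.3 CPM with Elvitegravir.

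When CD1530 was added to CHIR-99021 more members rose than fell. In this comparison 26 of 87 members rose (29.9%, against 15% of all genes) and 3 fell (3.45%, against 12.5%). The median log2 fold change was 0.22. The count rests on the second CHIR library: without it 7 rose and 4 fell, without the first 37 rose and 6 fell, and in a fit of the compared groups alone 3 rose and 2 fell. Complex I had 14 risen subunit genes of 35, its assembly genes 1 of 8, complex IV 7 of 15, and complexes III and V 2 each.

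Uqcr11 was at 95.8 and 86.1 CPM with CD1530, above both CHIR libraries (49.7 and 15.4 CPM), with a log2 fold change of 1.47 (SE 0.31, adjusted p = 1.58e-04) by edgeR. Without the second CHIR library this became 0.88 and still passed, but it did not pass in the compared groups alone (adjusted p = 0.0946, edgeR). Cox6a1, the common form of a complex IV subunit, was at 292 and 261 CPM against 137 and 64.4 CPM, with a log2 fold change of 1.45 (SE 0.21, adjusted p = 4.95e-07) by edgeR and 1.02 without the second CHIR library. Cox7a1 was at 6.74 and 5.86 CPM against 3.12 and 1.55 CPM, with log2 fold changes of 1.38 (SE 0.30) and 1.01. Ndufa3, an accessory subunit of complex I, was at 59.3 and 56.6 CPM against 35.8 and 8.86 CPM and lost its call without the second CHIR library (log2 fold change 1.35, SE 0.39, then 0.70) and in the compared groups alone (edgeR adjusted p = 0.152).

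The 3 members that fell with CD1530 belong to complex I and its assembly. Ndufaf4 was at 17.2 and 19.9 CPM against 36.7 and 72.2 CPM in CHIR, with a log2 fold change of -1.54 (SE 0.18, adjusted p = 9.84e-09) by edgeR and -0.98 without the second CHIR library. Ndufaf1, which helps to build the membrane arm, was at 17.9 and 17.3 CPM against 27.2 and 33.9 CPM (log2 fold changes -0.79, SE 0.14, and -0.62). Ndufs4, an accessory subunit, was at 54.8 and 51.9 CPM against 66.6 and 105 CPM, and its log2 fold change of -0.68 (SE 0.17) went to -0.32 without the second CHIR library and no longer passed. It also missed the threshold in the compared groups alone (adjusted p = 0.0945, edgeR). Summed extraembryonic endoderm markers were 1200 to 1218 CPM with CD1530 and 121 to 142 CPM in CHIR, and trophectoderm markers 596 to 599 and 77.8 to 98.7 CPM. Most of the trophectoderm sum with CD1530 was the keratins Krt8 and Krt18, at 355 and 182 CPM. Cdx2, Gata3, Eomes and Tfap2c were at 8.39, 3.23, 15.8 and 32.7 CPM there. The part of these markers was not tested.

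In mESCs given the same medium fewer members were called. In treated against untreated mESCs 26 of 89 members fell (29.2%, against 13.2% of all genes) and 2 rose (2.25%, against 18.5%), with a median log2 fold change of -0.31, against 0.04 over all tested genes. The fall met 10 of 36 subunit genes and 4 of 8 assembly genes of complex I, 2 of 4 genes in complex II, 1 of 8 in complex III, 7 of 16 in complex IV and 2 of 17 in complex V. Of 77 genes for mitochondrial ribosomal proteins 6 fell and 1 rose, and of 32 further assembly factors 12 fell and 1 rose. The sum of the feeder fibroblast markers was lower after treatment, as given above. Pdgfrb and Lum were higher, with Pdgfrb at 14.1 CPM before and 29.5 CPM after treatment, and the other feeder markers were lower.

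Cox6b2 went from 119 and 123 CPM in mESCs to 18.7 and 19.2 CPM after treatment, with a log2 fold change of -2.67 (SE 0.22, adjusted p = 1.04e-12) by edgeR. Its partner Cox6b1 fell too, from 152 and 163 CPM to 74.5 and 69.7 CPM (log2 fold change -1.13, SE 0.27, adjusted p = 8.82e-04, edgeR). Ndufaf3, an assembly factor of complex I, went from 19.1 and 18.9 CPM to 5.93 and 5.42 CPM, with a log2 fold change of -1.74 (SE 0.14, adjusted p = 1.02e-12) by edgeR. Ndufa4l2 fell from 42.4 and 39.9 CPM to 16.4 and 16.2 CPM (log2 fold change -1.34, SE 0.35, adjusted p = 0.00208, edgeR). The libraries of these 4 genes did not overlap between the groups.

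Cox7a1 rose in treated mESCs as in S1, from 3.90 and 5.96 CPM to 11.5 and 11.5 CPM, with a log2 fold change of 1.21 (SE 0.28, adjusted p = 5.57e-04) by edgeR. Ndufaf2, another assembly factor, rose from 5.67 and 8.95 CPM to 11.8 and 11.8 CPM (log2 fold change 0.69, SE 0.23, adjusted p = 0.0138, edgeR), a call that was lost without the first mESC library (log2 fold change 0.40). Of its 100-base stretches 62.4% also stand in transcripts of other genes, so its reads could have been shared out in counting. Atp5a1 and Atp5b were at -0.45 (SE 0.07) and -0.22 (SE 0.08) on the log2 scale, below the 1.5-fold limit.

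After 25 passages in totipotency medium the members were again lower than in EPSCs. In P25 against EPSCs of the second set 20 of 89 members fell (22.5%, against 10.5% of all genes) and 3 rose (3.37%, against 17.3%). The median log2 fold change was -0.41, against 0.02 over all tested genes, and 80 members had a value below 0. Against all 4 EPSC libraries pooled, which crosses the sets, 35 members fell and 3 rose. Of 76 genes for cytosolic ribosomal proteins 22 fell, and of 77 for mitochondrial ribosomal proteins 6. The sum of the feeder fibroblast markers was higher in P25, as given above. Col1a1, Col1a2, Col3a1, Postn and Pdgfrb were higher there. Dcn, Lum and Thy1 were lower, with Dcn at 65.8 CPM in EPSCs and 10.5 CPM in P25.

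Cox6b2 was at 63.3 and 58 CPM in EPSCs and at 14.9 and 16.6 CPM in P25, with a log2 fold change of -1.94 (SE 0.23, adjusted p = 6.43e-09) by edgeR. Cox7b of complex IV went from 116 and 117 CPM to 63.6 and 69.8 CPM (-0.81, SE 0.18 on the log2 scale), Atp5j, coupling factor F6 of ATP synthase, from 125 and 125 CPM to 70.8 and 73.1 CPM (-0.80, SE 0.15), and Sdhd, a membrane anchor of complex II, from 177 and 179 CPM to 100.2 and 107 CPM (-0.78, SE 0.11). The edgeR adjusted p-values of these 3 genes were 0.000306, 2.32e-05 and 3.40e-07. The 3 members that rose were restricted isoforms, while Cox6b2, another, fell. Cox4i2 went from 0.917 and 1.02 CPM to 3.79 and 4.78 CPM (log2 fold change 2.14, SE 0.48, adjusted p = 3.68e-04, edgeR), Cox7a1 from 2.16 and 2.14 CPM to 6.30 and 8.5 CPM (log2 fold change 1.78, SE 0.35, adjusted p = 6.62e-05, edgeR) and Ndufa4l2 from 9.22 and 9.08 CPM to 23.1 and 24.1 CPM (log2 fold change 1.37, SE 0.38, adjusted p = 0.00401, edgeR).

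The 3 comparisons of totipotency medium with its starting cells share no library. Among 87 members 7 (8.05%, against 3.15% of all tested genes) fell in all 3: Cox6b2, the complex I genes Ndufb5, Ndufb6 and Ndufs4, the assembly factor Ndufaf5, Sdhd and Uqcrc1, a list made after their values were seen. Ndufb6 had log2 fold changes of -1.24 in S1, -0.66 in treated mESCs and -0.75 in P25, and Uqcrc1 of -1.12, -0.65 and -0.59. A value below 0 in all 3 was found for 64 members (73.6%), against 18.3% of all tested genes and 21.5% of the 21300 with a count in the first set. Of the 49 members that fell in S1, 16 (32.7%) also fell in P25, which is 80% of the 20 that fell there. Over all tested genes the shared part was 41.1% of those that fell in S1 and 61.6% of those that fell in P25. Between S1 and treated mESCs 15 members were shared (30.6% and 60% of the lists, against 32.5% and 38.8% over all genes).

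**Figure D3:**
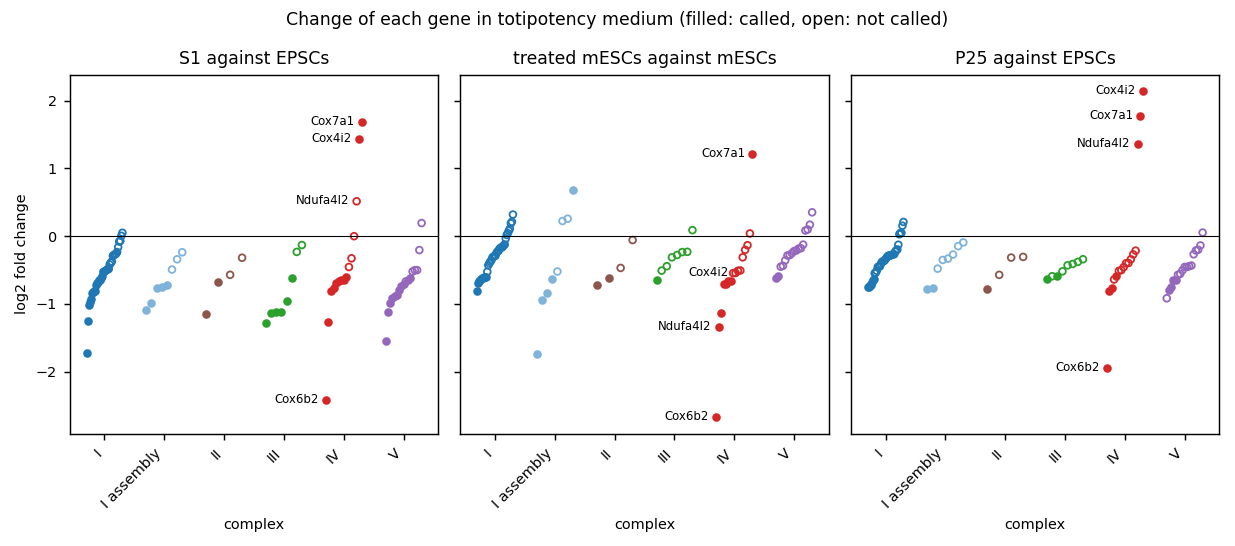
The log2 fold change of each member is plotted by complex for S1, treated mESCs and P25, each against its starting cells, with filled points for called genes. Most points lie below 0 in all 3 panels, Cox6b2 lies lowest in each, and Cox7a1 lies above 0 in each.

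The responses of the 2 cell lines, and of short and long treatment, were also compared directly. The mESC response was higher than the EPSC response in 14 of 87 members (16.1%, against 14.3% of all genes) and lower in 4 (4.60%, against 13.2%), so the share of higher members lay near that of all genes. Without the second S1 library or EPSC library 1 10 members were called in all. Atp5g1 differed by 1.42 (SE 0.16, edgeR adjusted p = 7.55e-09) and Ndufs7 by 1.32 (SE 0.19, edgeR adjusted p = 8.29e-07). Atp5g1 measured 159.8 and 148 CPM in mESCs and 141 and 142 CPM after treatment, beside its fall in S1, and Ndufs7 83.6 and 76.7 CPM and 60.5 and 61.1 CPM. Cox4i2 (-1.98) and Ndufa4l2 (-1.85) had the lower mESC response. Each lost its edgeR call when certain libraries were left out: Cox4i2 without the second mESC library (adjusted p = 0.117) or the second treated one (0.0638), and Ndufa4l2 without the second S1 library (0.188, with a difference of -1.08) or EPSC library 1 (0.0612). The cell line and the set of libraries cannot be told apart in this difference.

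The P25 response was higher than the 2-day response in 8 members (9.20%, against 8.88% of all genes) and lower in none (against 6.84%), again near the share of all genes. Atp5g1 and Ndufs7 had the strongest differences of the 8, 1.10 (SE 0.17, edgeR adjusted p = 3.53e-06) and 1.08 (SE 0.20, edgeR adjusted p = 6.89e-05). Atp5g1 was at 170.4 and 155 CPM in EPSCs of the second set and 119 and 120.2 CPM in P25. Without the second S1 library 4 members were called and without EPSC library 1 there were 5. This difference and that of the cell lines use the same S1 and EPSC libraries. P38 against P25 had no called member by edgeR (against 1.2% of all genes); 8 members had an unadjusted p under 0.05, and DESeq2 called none. Fits of these groups alone called 3 members. Ndufa4l2 was at 15.4 and 7.18 CPM in P38 beside 23.1 and 24.1 CPM in P25.

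From P25 to the S2 aggregates, which the labels derive from S1 cells without giving a passage, the restricted isoforms turned over. In S2 against P25 10 of 89 members rose (11.2%, against 9.95% of all genes) and 5 fell (5.62%, against 14.5%), with a median log2 fold change of 0.24. The share that rose lay near that of all genes. With RLE size factors or DESeq2 5 rose and 5 fell, and with P38 in place of P25 5 rose and 7 fell, so the split depends on the scaling and the reference. P25 and S2 also differ in the share of even counts, and with halved counts 9 rose and 5 fell.

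Ndufa4l2 dropped from 23.1 and 24.1 CPM in P25 to 0.687 and 0.798 CPM in S2, with a log2 fold change of -4.98 (SE 0.48, adjusted p = 1.21e-10) by edgeR. Cox4i2 went from 3.79 and 4.78 CPM to 0.429 and 0.523 CPM (log2 fold change -3.16, SE 0.48, adjusted p = 1.79e-06, edgeR). Cox6b2 moved the other way, from 14.9 and 16.6 CPM to 76.2 and 74.2 CPM (log2 fold change 2.26, SE 0.23, adjusted p = 3.00e-10, edgeR). No P25 library overlapped an S2 library in these 3 genes. The feeder fibroblast markers also differed at this step. They summed to 1278 to 1288 CPM in P25, 434.2 to 726.5 CPM in P38 and 256.8 to 267.2 CPM in S2. In S5, where Ndufa4l2 was higher than in S2, they summed to 45.4 to 49.6 CPM. The part of feeder cells in these changes was not tested.

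Smaller changes met other parts of the chain. Atp5o, the stalk protein that ties the ATP synthase head to its stator, was at 71.4 and 69.3 CPM and 132 and 119 CPM (0.83, SE 0.12 on the log2 scale), and Uqcrh, the hinge protein of complex III, at 61.7 and 60.8 CPM and 115 and 102 CPM (0.82, SE 0.13). Ndufaf3 fell from 11.8 and 11.3 CPM to 6.41 and 5.72 CPM (-0.93, SE 0.15). Cox7a1, at 6.30 and 8.5 CPM and 14 and 12.7 CPM (0.86, SE 0.29), rose, but not against P38 (log2 fold change 0.16) nor without the first P25 or the first S2 library (edgeR adjusted p = 0.202 and 0.0874). Ndufv3, an accessory subunit beside the NADH site, fell from 44.7 and 53.4 CPM to 25.7 and 25.6 CPM (-0.94, SE 0.27), and lost its call against P38 (-0.59) and without the second P25 library (edgeR adjusted p = 0.0686). Sdha, the flavoprotein of complex II, rose from 270.3 and 286 CPM to 422 and 418 CPM (0.59, SE 0.08). Transcripts of the mitochondrial genome had 4 of 13 that rose.

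Few members were called between S2 and S3 in the full medium. In S3 against S2 6 of 89 members fell (6.74%, against 5.96% of all genes) and 1 rose (1.12%, against 3.84%), and the median log2 fold change was -0.05. The share that fell lay near that of all genes. Ndufb4, an accessory subunit of complex I (chr16:37647170-37654453), was at 25.5 and 28 CPM in S2 and 8.88 and 6.12 CPM in S3, with a log2 fold change of -1.84 (SE 0.17, adjusted p = 7.48e-10) by edgeR. Atp5g2, which codes for the same c subunit as Atp5g1 and Atp5g3, was at 109.7 and 107 CPM and 36.7 and 25 CPM (log2 fold change -1.82, SE 0.21, adjusted p = 5.45e-08, edgeR), and Cox7a2 at 111 and 106 CPM and 37.1 and 28.6 CPM (log2 fold change -1.72, SE 0.17, adjusted p = 2.78e-09, edgeR). Ndufa12, at 82.9 and 75.1 CPM and 31.3 and 28.3 CPM, had a log2 fold change of -1.41 (SE 0.33, adjusted p = 0.00238) by edgeR. Uqcrq and Cox5b also fell, with log2 fold changes of -1.04 and -0.82. Atp5mpl, a small proteolipid of ATP synthase, rose (0.61, SE 0.22), but without any of the 4 libraries in turn it did not pass, with log2 fold changes from 0.45 to 0.77.

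Both S3 libraries lay below all 28 other S2, S3 and S5 libraries in 7 members (7.87%, against 3.63% of 14531 genes above 1 CPM): Atp5g2, Cox5b, Cox7a2, Cox8a, Ndufa12, Ndufb4 and Uqcrq, named after their values were seen. They lay above all 28 in 12 members (13.5%, against 5.28% of genes), among them Atp5a1 at 1234 and 1255 CPM and Cox4i1 at 409 and 363 CPM. The genes for the ribosomal proteins Rpl27 and Rpl31 were below all 28 as well, Rpl27 at 167 and 121 CPM against a lowest of 287 CPM. As a class such genes were not lower: of 76 for cytosolic ribosomal proteins 9 fell and 4 rose in S3 against S2. Their median log2 fold change was -0.005. Of 13 mitochondrial transcripts 6 fell in S3 against S2, with a median of -1.68. Of the 100-base stretches of Atp5g2 34.7% also stand in transcripts of other genes, of Ndufb4 16.0% and of Ndufa12 11.4%, and of Cox7a2 and Uqcrq none. The part of the libraries in these values was not tested.

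**Figure D4:**
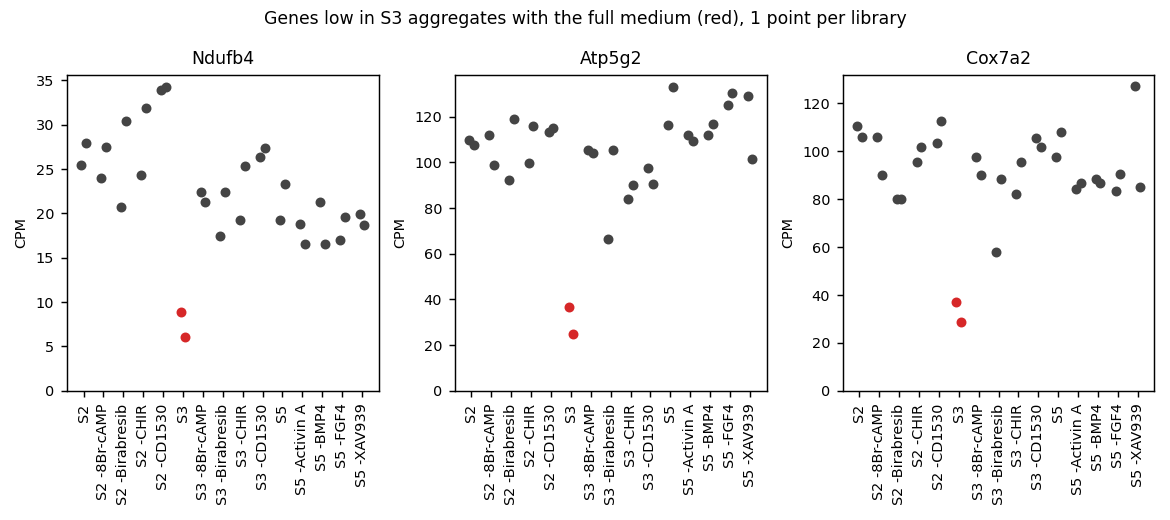
CPM of Ndufb4, Atp5g2 and Cox7a2 in each library of the S2, S3 and S5 groups, with 1 point per library. The 2 red S3 libraries lie below all 28 others in each panel, and the 8 S3 libraries that lacked an agent lie with S2 and S5.

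Leaving an agent out of the 4C-64C medium was compared with the full medium of the same stage. At S2 almost no member was called. Without 8Br-cAMP (against 3.78% of all genes), Birabresib (against 5.28%) or CD1530 (against 4.47%) edgeR called none, with 6, 17 and 5 members at an unadjusted p under 0.05 and none called by DESeq2. Libraries of some groups lay apart: the summed level of the members was 7376 and 9307 CPM in S2 -Birabresib and 8893 and 10562 CPM in S2 -CHIR. Without CHIR-99021 Cox6b2 fell (1 of 89 members, 1.12%, against 4.2% of all genes), and none rose (against 4.74%). Cox6b2 was at 76.2 and 74.2 CPM in S2 and 42.7 and 49.8 CPM without CHIR-99021, with a log2 fold change of -0.70 (SE 0.21, adjusted p = 0.0168) by edgeR. The call was lost without either S2 library or the first S2 -CHIR library (edgeR adjusted p from 0.0684 to 0.172).

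At S3 all 4 omissions were compared with the same 2 S3 libraries, which stood apart as described, so their calls share those libraries. Without 8Br-cAMP 6 members rose (6.74%, against 6.07%) and 5 fell (5.62%, against 6.41%). Without Birabresib 3 rose (3.37%, against 8.7%) and 4 fell (4.49%, against 1.6%). Without CHIR-99021 5 rose (5.62%, against 8.33%) and 3 fell (3.37%, against 7.42%), and without CD1530 7 rose (7.87%, against 4.34%) and 1 fell (1.12%, against 6.65%). The counts are small and rest on single libraries: 6 were called when either library without 8Br-cAMP was absent, 4 without the first S3 or the second S3 -Birabresib library, 3 without the second S3 -CHIR library and 5 without the first S3 library, and for CD1530 4 without the second S3 library and 5 without either S3 -CD1530 library. Atp5g2, Ndufb4 and Cox7a2, the genes low in S3, were higher in all 4 comparisons. This direction follows from their choice, since both S3 libraries lay below every omission library in them. Ndufb4 was at 22.4 and 21.3 CPM without 8Br-cAMP, 17.4 and 22.5 CPM without Birabresib, 19.2 and 25.3 CPM without CHIR-99021 and 26.3 and 27.4 CPM without CD1530. The log2 fold changes of Atp5g2 in the same order were 1.76, 1.48, 1.5 and 1.61, and those of Cox7a2 1.52, 1.16, 1.44 and 1.66.

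Other members were called in single omissions at S3, and no omission was tested against another. Cox7a1 was at 13.4 and 12.4 CPM in S3, 5.82 and 4.76 CPM without 8Br-cAMP and 6.77 and 7.79 CPM without CD1530. It fell without 8Br-cAMP, with a log2 fold change of -1.28 (SE 0.28, adjusted p = 6.70e-04) by edgeR, and without CD1530, with a log2 fold change of -0.82 (SE 0.27, adjusted p = 0.028) by edgeR, a call that no set of 3 libraries kept (adjusted p from 0.0787 to 0.191). Without Birabresib or CHIR-99021 it was at 15 and 12.6 and 13.8 and 14.6 CPM, close to S3. Cox6b2 fell without CHIR-99021 from 110.1 and 101 CPM to 64 and 61.2 CPM (log2 fold change -0.75, SE 0.21, adjusted p = 0.00537, edgeR), which was lost without the first S3 or the second S3 -CHIR library (edgeR adjusted p = 0.0513 and 0.0584). Atp5a1 fell without Birabresib, from 1234 and 1255 CPM to 808 and 744 CPM (-0.68, SE 0.07 on the log2 scale). Ndufb9 without Birabresib (-0.65, SE 0.16), Atp5e, the epsilon subunit, without 8Br-cAMP (-0.78, SE 0.21) and Atp5mpl without CHIR-99021 (-0.63, SE 0.22) also fell. Each of these lost its call without certain libraries: Ndufb9 and Atp5e without the first S3 library and without the second of the omission, and Atp5mpl without the first S3 or either S3 -CHIR library.

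At S5, in the peri-implantation medium, the isoforms changed places again. In S5 against S3 11 of 89 members rose (12.4%, against 17.8% of all genes) and 9 fell (10.1%, against 14.1%), both below the share of all genes, and the median log2 fold change was -0.08. Set against S2, 5 rose and 6 fell. Ndufa4l2 was at 0.974 and 0.357 CPM in S3 and 23 and 29.4 CPM in S5, with a log2 fold change of 5.30 (SE 0.47, adjusted p = 7.96e-12) by edgeR. Cox4i2 went from 0.162 and 0.402 CPM to 2.59 and 1.60 CPM (log2 fold change 2.87, SE 0.50, adjusted p = 8.92e-06, edgeR). Cox6b2 fell from 110.1 and 101 CPM to 30.7 and 28.3 CPM (log2 fold change -1.84, SE 0.21, adjusted p = 3.48e-09, edgeR), and Cox7a1 from 13.4 and 12.4 CPM to 3.62 and 6.54 CPM (log2 fold change -1.34, SE 0.28, adjusted p = 1.26e-04, edgeR). In each of these 4 genes the S3 and S5 libraries did not overlap.

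Atp5g2, at 116 and 133 CPM in S5, and Cox7a2, at 97.7 and 108 CPM, rose against S3, where both were low, with log2 fold changes of 2.02 (SE 0.21) and 1.65 (SE 0.17). Against S2 their log2 fold changes were 0.20 and -0.07, and neither passed. Ndufb9 fell from 35.7 and 31.1 CPM to 17.7 and 16.6 CPM (-0.96, SE 0.16). Atp5md, a small membrane subunit of ATP synthase, fell from 86.4 and 72.1 CPM to 36.2 and 51.9 CPM (-0.85, SE 0.23), a call lost against S2 (-0.28) and without the first S5 library (edgeR adjusted p = 0.0998). Summed markers of extraembryonic endoderm and of epiblast and streak (256 to 303 CPM in S5, 30.9 to 32.6 CPM in S3) were higher in S5, and their part was not tested. Among the latter Fgf5, Otx2, Mixl1 and Eomes were higher in S5. The streak gene T was lower, at 4.16 CPM in S3 and 0.957 CPM in S5.

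In none of the 4 omissions at S5 did edgeR call a member. Called genes made up 2.15% of all without Activin A, 0.22% without BMP4, 9.16% without FGF4 and 4.77% without XAV939. Members with an unadjusted p under 0.05 numbered 4, 2, 12 and 1 in that order, and DESeq2 called none. Without the second S5 -XAV939 library 1 member was called there. Ndufa4l2 stayed between 23 and 38.3 CPM in the 10 S5 libraries, and Cox6b2 between 23.5 and 38.9 CPM. Summed levels of the members lay apart within some groups. They were 10136 and 7984 CPM in S5 -XAV939 and 8530 and 9784 CPM in S5. The lack of calls therefore does not show that the members were unchanged.

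Read as shares of an isoform pair, on CPM per kilobase of exon, the complex IV genes gave a pattern by stage. The size of each share depends on the annotated exon lengths. Cox6b2 made up 32.9% ± 0.603 (SD, n = 2) of Cox6b1 and Cox6b2 in mESCs, 14.4% ± 0.813 in treated mESCs, 23.5% ± 0.898 in EPSCs of the second set and 11.1% ± 0.82 in P25. It made up 30.1% ± 0.438 in S2, 38.6% ± 2.04 in S3 and 18.2% ± 2.20 in S5. In the first set its share was 18.4% ± 1.62 in EPSCs and 6.21% ± 0.203 in S1, and the 4 groups with CHIR-99021 lay between 7.21% ± 0.252 and 8.92% ± 2.19. The share in P38, 8.56% ± 1.48, lay below that of P25.

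Ndufa4l2 reached 32.6% ± 2.32 of Ndufa4 and Ndufa4l2 in mESCs, 27.2% ± 0.0333 in P25 and 25.3% ± 0.213 in S5. In S2 and S3 it was 0.671% ± 0.131 and 0.83% ± 0.477, and no omission group of these stages had a mean above 1.61% ± 0.244, the value without Birabresib at S2. Cox4i2 stayed a small part of Cox4i1 and Cox4i2, with 2.68% ± 0.241 in P25, 1.62% ± 0.675 in S5, 0.455% ± 0.0718 in EPSCs and 0.147% ± 0.0984 in S3. Cox7a1 was 3.23% ± 0.0397 of Cox7a1 and Cox7a2 in EPSCs of the second set, 13.9% ± 2.38 in P25, 17.9% ± 0.573 in S2 and 7.89% ± 2.47 in S5, and its 41.1% ± 3.04 in S3 goes with the low Cox7a2 there. Of Atp5g1 and Atp5g3, which code for the same mature c subunit, Atp5g1 made up 21.9% ± 0.31 in EPSCs of the first set and 12.0% ± 0.472 in S1. Its share was 24.2% ± 2.00 in mESCs and 18.7% ± 0.46 in treated mESCs. In EPSCs of the second set, P25 and P38 it was 21.1% ± 0.497, 21.2% ± 0.565 and 24.4% ± 0.902. Atp5g2, which codes for the same subunit, is not part of this share. None of Cox6b2, Cox7a1, Ndufa4l2 and Cox4i2 shares a 100-base stretch with another gene's transcripts.

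**Figure D5:**
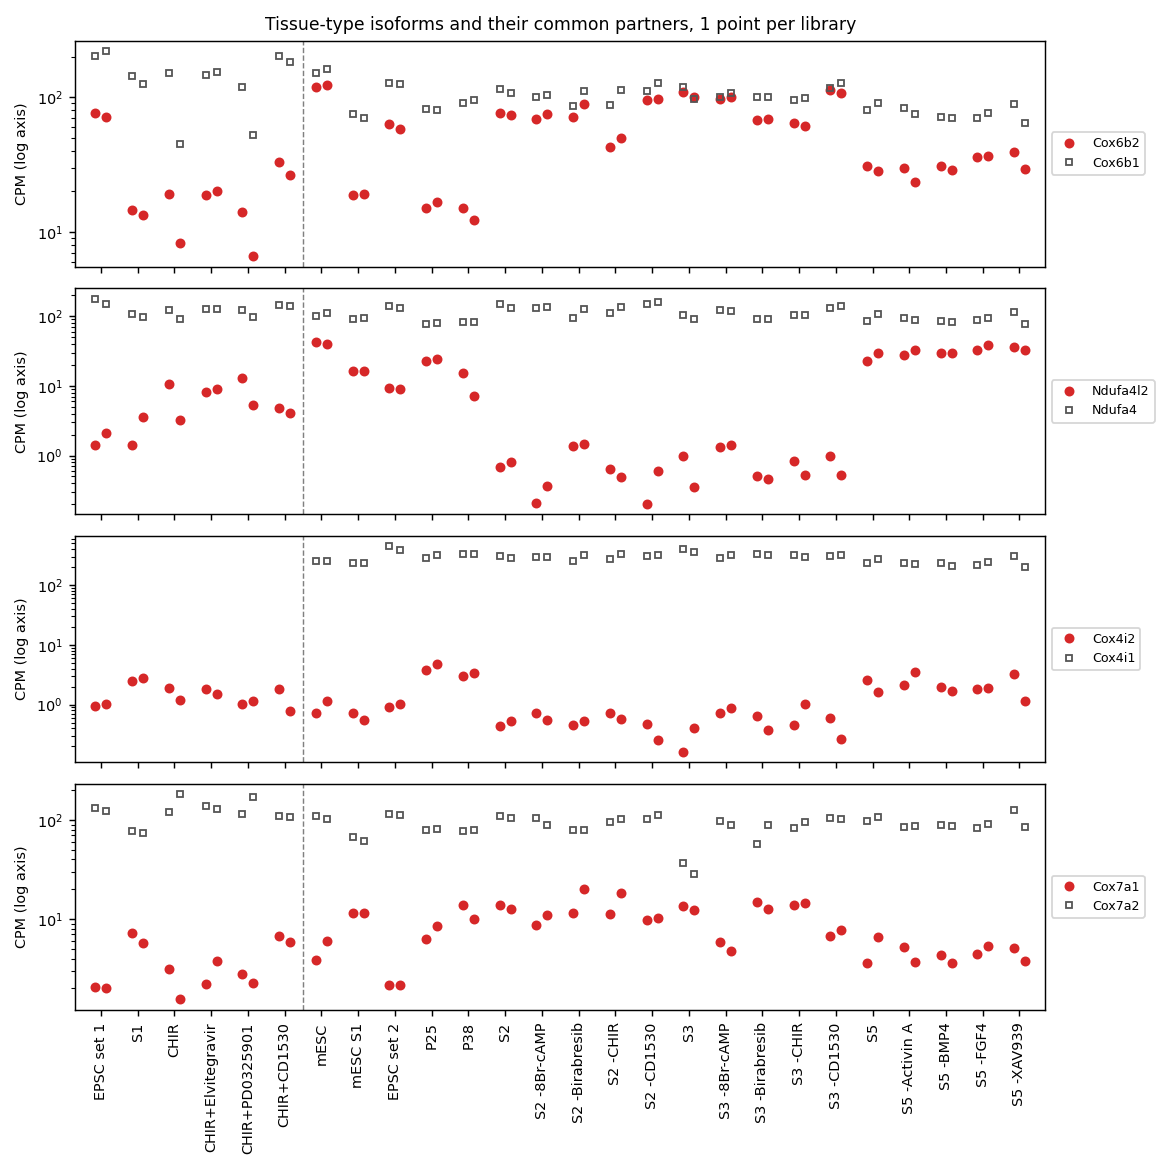
CPM on log axes of Cox6b2, Ndufa4l2, Cox4i2 and Cox7a1 (red) and of their common partners Cox6b1, Ndufa4, Cox4i1 and Cox7a2 (open squares) in every library, 1 point each, with the first set left of the dashed line, where Cox4i1 had no count. Ndufa4l2 and Cox4i2 are low in the S2 and S3 groups and high in P25 and S5, and Cox6b2 is high in S2 and S3 and low in S1 and P25.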

How the data were processed

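Raw counts per gene are what the authors deposited, in 1 table of 52 libraries. Per the labels' protocols, RNA was purified with RNeasy columns and oligo-dT beads and sequenced as 2 × 100 base pairs. The submitters' processing notes name Trimmomatic 0.39, STAR 2.7.10b, featureCounts 2.0.6 and mm10. No source used here gives the annotation, strand setting or handling of pairs, so overlapping, antisense or near-identical genes may share reads. Groups come from the sample labels, and EPSC libraries 1 and 2 and libraries 3 and 4 were kept as 2 groups, which gave 26 group means.

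Counts were tested with edgeR 4.0.16 (R 4.3.3, limma 3.58.1): TMM scaling, filterByExpr, 1 model with 26 means, the quasi-likelihood F test and Benjamini-Hochberg adjustment over 25056 genes. A gene was called at an adjusted p under 0.05 and a change of 1.5-fold or more. The SE is the log2 fold change divided by the square root of F. Named members were up to 4 risen and 4 fallen with the strongest change in each of 8 main comparisons and up to 2 and 2 in the others, together with isoform sets, core subunits, members at both ends of the level range and members most and least like the member median. Members and lists were chosen with earlier results of these data known. Counts were also simulated for S1 against EPSCs, modelled on the 12 libraries of the first set alone (19150 genes). A fit of these, with an adjusted p under 0.05 and no fold limit, recovered 14% of genes changed 1.5-fold and 66% at 2-fold. It recovered 96% at 3-fold and 94% at 4-fold, with 4 false calls. The calls reported here come from another fit with a fold limit, so these shares do not measure their recovery.

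Alternatives were RLE size factors, no low-count filter, DESeq2 1.42.0, the compared groups alone, the replicate number as a block, other reference groups and each library left out. Fits with libraries left out kept the main fit's trend of spread with expression level instead of estimating it again. They thus differ from the main fit in more than the missing library. Halved counts and the fit without the second CHIR and CHIR+PD0325901 libraries were chosen after seeing the data. Coordinates follow mm10 (GENCODE M21) for 86 members and RefSeq for 3.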

Additional observations from a re-analysis of the deposited data

Results flagged for a closer look

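A test of the difference itself set some members apart between 2 responses to totipotency medium, and each value here is that difference in log2 fold change. Between mESCs and EPSCs, 18 of 87 members differed. The mESC response was higher in 16.1% of members, against 14.3% of all tested genes, and lower in 4.60%, against 13.2%. The mESC response was higher in the ATP synthase genes Atp5a1 (0.66), Atp5g1 (1.42), Atp5g3 (0.85), Atp5j (0.78) and Atp5j2 (0.64), in the complex I genes Ndufa8 (0.72), Ndufb8 (0.85), Ndufs7 (1.32) and Ndufs8 (0.65), in the assembly genes Ndufaf2 (0.92) and Ndufaf4 (1.31), in Uqcr10 (0.62) and Uqcrfs1 (0.68) of complex III and in Cox7c (0.84). It was lower in Cox4i2 (-1.98), Ndufa4l2 (-1.85), Ndufaf3 (-0.75) and Cox7a2l (-0.66).

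Between P25 and 2 days of treatment 8 members differed, all with the higher P25 response (9.20%, against 8.88% of all tested genes). None was lower, against 6.84% of all tested genes. The P25 response was higher in Atp5g1 (1.10), Ndufa7 (0.64), Ndufa8 (0.72), Ndufaf3 (0.84), Ndufb8 (1.02), Ndufs7 (1.08), Ndufs8 (0.97) and Uqcr10 (0.79). Both differences use the same S1 and EPSC libraries of the first set, so their shared genes are no independent support for each other. The set of libraries, the cell line and the length of treatment cannot be told apart in them.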

How the results depend on the processing

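Of 74 results for named genes, 54 kept their direction and call under every alternative, and of 801 values 757 did, 43 no longer passed and 1 reversed (Cox7a2 in S5 with S2 in place of S3, -0.072). Fewer samples or genes are part of several alternatives, and otherwise the cause was not tested. In fits of the compared groups alone the called members numbered 9 for CHIR, 5 for CD1530, 3 for P38, 1 for S2 -CD1530, 11 for S3 -Birabresib, 1 for S5 -FGF4 and 13 for the P25 difference. Without the low-count filter they numbered 17 for Elvitegravir, 2 for P38, 1 each for S2 without 8Br-cAMP, S2 -Birabresib, S2 -CD1530 and S5 -FGF4, and 13 for the P25 difference. DESeq2 called 12 for Elvitegravir. Without the second CHIR and CHIR+PD0325901 libraries 16 were called for CHIR and 15 for CD1530. Against pooled EPSC libraries P25 had 38, and S5 had 11 against S2.

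With the replicate number as a block the calls were 53 for S1, 26 for CHIR, 32 for CD1530, 27 for mESC S1, 3 for P38, 13 for S2, 9 for S3, 21 for S5, 16 for S3 without 8Br-cAMP, 11 for S3 -Birabresib, 10 for S3 -CHIR, 12 for S3 -CD1530, 1 each for S2 -CD1530 and S5 -FGF4 and 23 for the mESC difference. The labels name no shared culture behind a number, and same-numbered libraries deviated together with r from -0.03 to 0.43 over genes, highest for PD0325901.

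With each library left out in turn the calls ranged from 38 to 53 in S1, 14 to 43 in CHIR, 0 to 36 with Elvitegravir, 6 to 20 with PD0325901, 11 to 43 with CD1530, 19 to 26 in mESC S1, 17 to 23 in P25, 11 to 16 in S2, 5 to 8 in S3, 16 to 24 in S5, 0 to 1 in S2 -CHIR, 6 to 10 in S3 without 8Br-cAMP, 4 to 9 in S3 -Birabresib, 3 to 8 in S3 -CHIR, 4 to 8 in S3 -CD1530, 0 to 1 in S5 -XAV939, 10 to 23 for the mESC difference and 4 to 11 for the P25 difference. A group left with 1 library was assumed to vary like the others, and the main fit's trend of spread with level was kept. With 2 libraries a group, changes near 1.5-fold were mostly not recovered in simulated counts of the first set, fitted alone and without the fold limit.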

Other observations

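Glycolytic genes, which make ATP without oxygen, were called at most stages. Of 10 glycolytic genes (the glucose carrier Slc2a1 and 9 enzymes from Hk2 to Ldha) 9 fell and 1 rose in S1 against EPSCs, with a median log2 fold change of -1.33, where the members had a median of -0.64. In P25 4 of the 10 rose and none fell (median 0.52), and the members had a median of -0.41. In treated mESCs 1 rose and none fell (median -0.10). From P25 to S2 9 fell (median -2.01), and from S3 to S5 all 10 rose (median 1.89), while the medians of the members at these steps were 0.24 and -0.08. Ndufa4l2 and Cox4i2 fell at the first of these steps and rose at the second. In P38 against P25 6 of the 10 glycolytic genes fell, and no member was called.

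Subunits made from the mitochondrial genome gave another set of counts. Of 13 such transcripts 4 rose in treated mESCs, 4 rose in S2 and 6 rose in S5 and none fell, 6 fell in S3, and 6 to 7 rose in each S3 omission against the same S3 libraries.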
